A study of Homo sapiens with 2 samples.

Results

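Cells that carried fibrillar collagen transcripts but few cardiomyocyte, epicardial or endothelial transcripts made up 1322 of the 21623 cells kept from 1 pool of human cardiomyocytes made from embryonic stem cells, or 6.11% (exact 95% interval 5.80 to 6.44). They are called collagen-positive cells, or members, here. They were chosen by measured values: the 12 cardiomyocyte genes TNNT2, ACTN2, TTN, TNNC1, MYL4, MYL7, MYBPC3, NEBL, TNNI1, MYOM1, LDB3 and SMPX had to sum to less than 20000 CPM (UMIs of a gene scaled to a common total per cell or set of cells). COL1A1, COL1A2 and COL3A1 together had to reach at least 5 unique molecular identifiers (UMIs, each counting 1 captured RNA molecule). WT1, BNC1, SMOC2, PTGIS and ASPHD1 together could have at most 2 UMIs, and CDH5, EMCN, PECAM1 and TIE1 at most 1. The levels of these genes, and every level compared across the same limits, are therefore a description of what was selected and are given without a test.

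Mesenchymal or stromal cells, of which fibroblasts are the best known, secrete and remodel the fibrous matrix between other cells. They make procollagens, the enzymes that fold and crosslink them, small proteoglycans that set fibril spacing, and the integrins through which cells hold the fibrils. In the heart, fibroblasts and the mural cells around vessels arise largely from the epicardium, the mesothelial sheet that covers the organ, and cultures meant to yield cardiomyocytes often hold such non-muscle cells too.

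The pool held day 15 cardiomyocytes derived from H9, an established human embryonic stem cell line, with the gCaMP6f calcium reporter. These had been frozen, then thawed, stained with antibodies that carry a DNA barcode (hashtags) and pooled for droplet capture with 10x Genomics reagents. All cells share the cell line, the reporter, the freezing and the capture, and no label says which culture or condition a hashtag stood for, so the 13 hashtags are unassigned samples and are described by their lowest, median and highest value. There was 1 library of gene expression and 1 of hashtags, joined through 24038 barcodes found in both, so differences between kinds of cell rest on 1 capture and intervals cover counting error only. The spread over hashtags is given beside them.

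A member had 1023 to 58290 UMIs (median 11082) and a median of 3388.5 genes, against medians of 12547 UMIs in cardiomyocytes and 13406 in the epicardial-gene cells described below. Scrublet, which scores barcodes by likeness to simulated pairs of cells, marked 124 members (9.38%) and 12% of cardiomyocytes as doublets. None was removed from the main values. Cells with 20 or more hashtag UMIs, of which 70% or more were of a single hashtag, were assigned to it. This was so for 682 members (51.6%), while the other 640 (48.4%) carried mixed hashtags, as did 52.3% of cardiomyocytes. How far mixed barcodes hold more than 1 cell was not tested. The 12 cardiomyocyte genes summed to 5316 CPM in members against 43368 CPM in cardiomyocytes. They were at 6589 CPM in the non-cardiomyocyte cells with little collagen. The selection limits these genes in all 3 sets, so the sums partly describe what was selected. In droplet data, RNA freed from other cells can also add UMIs, and its part in these sums was not tested.

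Members were set against 3 other sets of kept cells. Cardiomyocytes were the 18330 cells (84.8%) whose 12 cardiomyocyte genes summed to 20000 CPM or more. Epicardial-gene cells were the 403 cells (1.86%) that met the same cardiomyocyte, collagen and endothelial limits but had at least 3 UMIs of the 5 epicardial genes. Collagen-low cells were the 1538 cells (7.11%) under the cardiomyocyte limit with fewer than 5 collagen UMIs. A further 30 cells with endothelial UMIs above the limit were left out. Levels are from pooled UMIs of each set, and a gene counted as measured if it reached 10 CPM and 10 UMIs in the set where it was more abundant. It is called higher or lower from a ratio of 1.5.

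The given stromal markers were examined first. COL3A1 (chromosome 2, 188974320 to 189012746, plus strand, GRCh38) encodes the type III procollagen chain of soft, extensible fibrils. Its level was 792 to 1728 CPM (median 1255) in members over the 10 hashtags with at least 20 members, and 10.5 to 74.4 CPM (median 28.3) in cardiomyocytes of the same hashtags. COL1A1 (chromosome 17, 50183289 to 50201632, minus strand) and COL1A2 (chromosome 7, 94394561 to 94431232, plus strand) encode the chains of type I collagen, the main fibril of stiff matrix. COL1A1 was at 171 to 879 CPM (median 454) and COL1A2 at 164 to 625 CPM (median 234) in members. The 3 collagens were chosen by the rule, and no hashtag of members overlapped a hashtag of cardiomyocytes for any of them.

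The other 3 markers took no part in the rule. THY1 (chromosome 11, 119417378 to 119424985, minus strand), a surface glycoprotein of fibroblasts and some neurons, was at 16.5 to 184 CPM (median 55) in members and 0.374 to 1.88 CPM (median 1.08) in cardiomyocytes, 43.8-fold (38.7 to 49.7) higher over all cells, 70.5-fold without Scrublet doublets and 68.1-fold among cells given to 1 hashtag. FOXC1 (chromosome 6, 1609972 to 1613897, plus strand), a forkhead transcription factor of mesenchyme, was at 21.7 to 104 CPM (median 47.7) against 0.723 to 11.3 CPM (median 2.39), 19.8-fold (17.9 to 21.8) higher. MFAP4 (chromosome 17, 19383442 to 19387240, minus strand), a microfibril-associated protein, was at 30.2 to 143 CPM (median 59.5) against 1.57 to 5.63 CPM (median 4), 14.2-fold (13.1 to 15.5) higher. Members lay above cardiomyocytes in 10 of 10 hashtags for all 3 genes, with no overlap. How many of all measured genes lie apart in this way is not given. Overlap, here and below, therefore only describes the gene named. The highest hashtag differed by gene: Hashtag12 for THY1, Hashtag2 for FOXC1 and Hashtag5 for MFAP4.

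Against cardiomyocytes, the label of stromal cells held for the summed members but not for all of them. Of the 14 fibroblast markers, 12 were measured and 11 were higher than in cardiomyocytes, with none lower (TMM, a scaling that discounts abundant genes, gave 11 higher and 1 lower). The median ratio was 8.51, where all measured genes had a median of 1.12. Of all 9418 genes measured in this comparison 2192, or 23.3%, were higher and 1258, or 13.4%, were lower. With TMM the calls were 1227 and 2318, and the median log2 ratio of all measured genes moved from 0.16 to -0.17. TMM counts are therefore given beside those of plain sums. Against epicardial-gene cells, 4 of 12 measured fibroblast markers were higher and 2 lower, with a median ratio of 1.09. The list summed to 959 CPM in members and 897 CPM in epicardial-gene cells, so it did not set these 2 sets apart. Epithelial markers were also high against cardiomyocytes, with 11 of 12 measured genes higher and a median ratio of 23.2. Their summed level was 2221 CPM in members, with a range over hashtags of 1022 to 3262 CPM (median 1715), and 873 CPM once 1 sub-cluster of 293 cells, described below, was set aside. Without those cells only 5 epithelial markers were measured against cardiomyocytes, of which 3 were higher and 1 was lower. The epithelial list summed to 4030.5 CPM in epicardial-gene cells, 1963 CPM in collagen-low cells and 604 CPM in cardiomyocytes.

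Markers of other cell types were low in members but mostly above cardiomyocytes where measured. Of the measured genes, 4 of 4 neural crest markers were higher (median ratio 24.1), 4 of 4 pluripotency markers (median 10.8), 5 of 6 neural markers (median 11.3), 2 of 3 endothelial markers (median 2.01) and 1 of 1 blood markers, RUNX1. Their summed levels in members and cardiomyocytes were 94.6 and 14.1 CPM for neural crest, 54.8 and 14 for pluripotency, 289 and 166 for neural, 169 and 72.2 for endothelial and 21.6 and 1.61 for blood markers. Without sub-cluster 1 the members' neural crest, pluripotency and blood sums were 28, 29.8 and 8.61 CPM. Only 1 neural crest and 1 pluripotency gene were then measured, both higher, and no blood marker was. TFAP2A, at 163 CPM in sub-cluster 1, belongs to both the neural crest and the epithelial list. Defining genes were at 0 in several lists. In members POU5F1 and PRDM14 of the pluripotency list, SOX10 and FOXD3 of the neural crest list, and GATA1 and HBG1 of the blood list had 0 UMIs, which allows a level of up to 0.185 CPM. PECAM1 of the endothelial list was also at 0, but the rule held CDH5, EMCN, PECAM1 and TIE1 together to at most 1 UMI per member. The paraxial and skeletal muscle list, with MSGN1, PAX7, MYF5 and MYOG at 0, had no measured gene. No gene of the epithelial, endoderm or cartilage lists was at 0. Endoderm markers summed to 131 CPM in members and 144 CPM in cardiomyocytes, against 7066 CPM in collagen-low cells, where SERPINA1, AFP and APOA1 were abundant. The part of these cell types in the results was not tested.

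Cells at the edges of the limits shaded into their neighbours. The 116 members with 5 or 6 collagen UMIs had COL3A1 at 342 CPM and LUM at 77.0 CPM, and the 132 cells just outside, with 3 or 4, had 140 and 18.9 CPM; their EPCAM was 151 and 221 CPM. The 119 members with cardiomyocyte genes from 15000 to 20000 CPM had THY1 at 27.4 CPM and TNNT2 at 3821 CPM, while the 120 cells just above the limit had 10.9 and 4325 CPM. At the epicardial limit, 145 members with 2 UMIs had LUM at 302 CPM and WT1 at 15.0 CPM, and 95 cells with 3 UMIs had 295 and 32.7 CPM. The 52 members with 1 endothelial UMI had FN1 at 680.0 CPM, and the 7 cells with 2 had 1043 CPM. The epicardial limit thus fell among cells that were alike in LUM, which took no part in the rule.

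**Figure D1:**
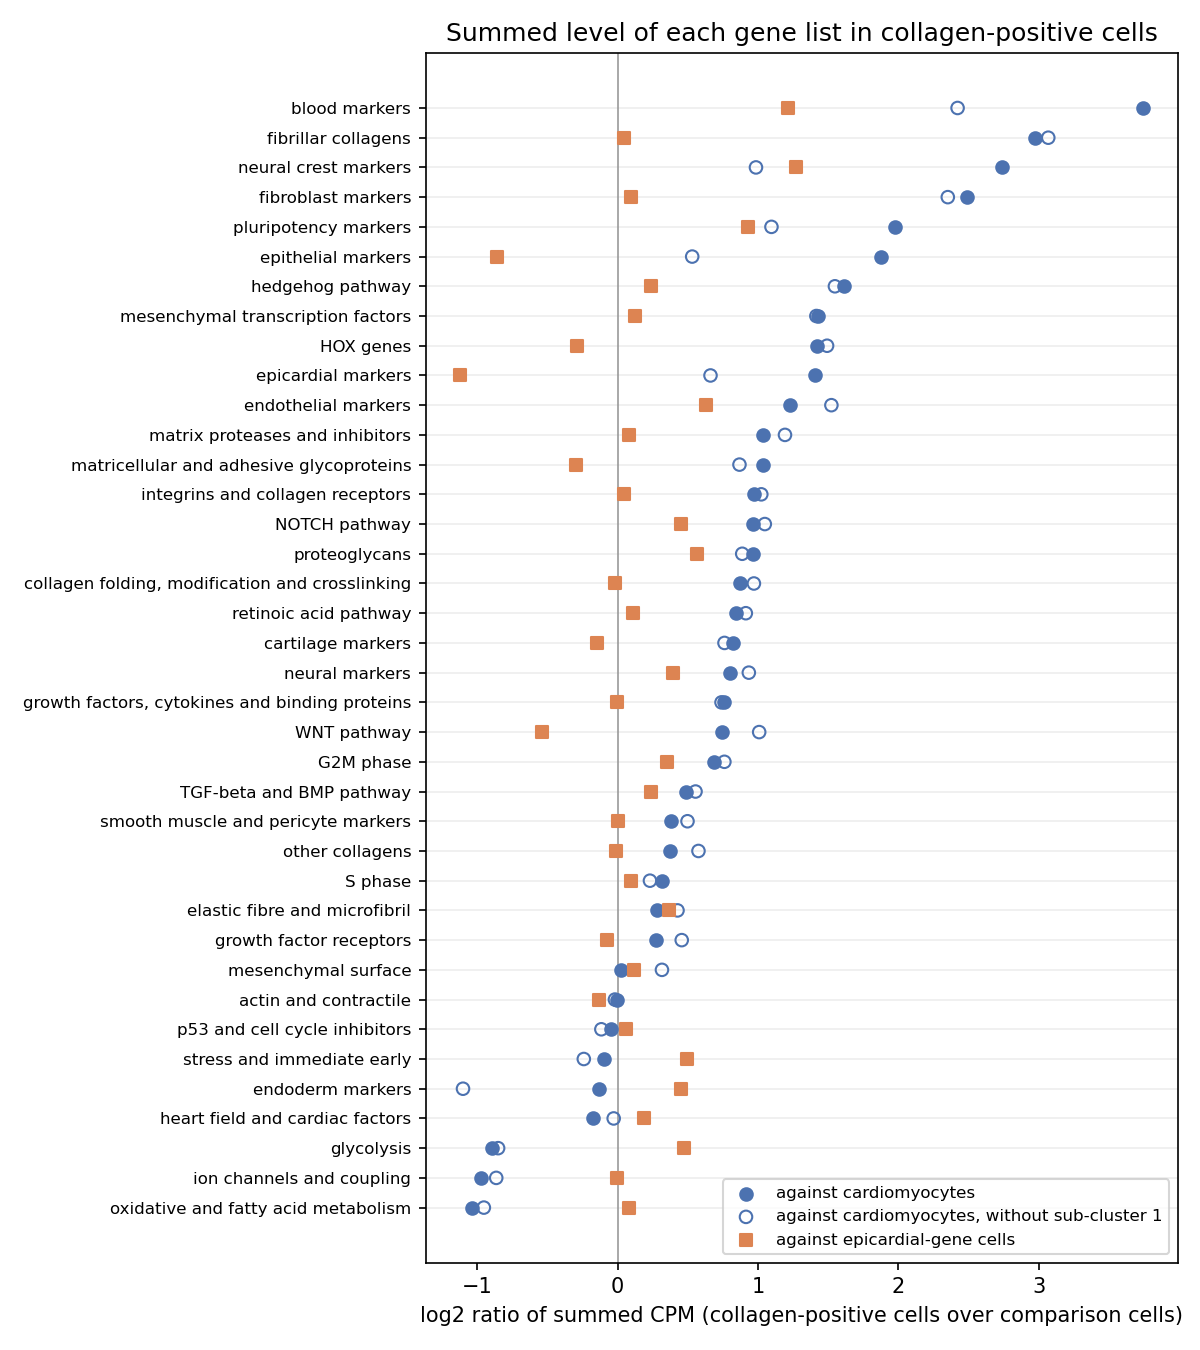
Log2 ratio of each gene list's summed CPM in collagen-positive cells to that in cardiomyocytes (filled points), the same without sub-cluster 1 (open points), and to that in epicardial-gene cells (squares); the vertical line at 0 marks equal levels. Epithelial and neural crest markers lie further left when sub-cluster 1 is set aside, and metabolic lists lie left of 0 against cardiomyocytes.

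Matrix genes were compared with cardiomyocytes by role. Of 11 fibrillar collagen genes 9 were measured, 7 were higher and 2 lower, with a median ratio of 3.49 and the same counts with TMM. COL1A1, COL1A2 and COL3A1, which the rule selected, are among the 7 and enter that median. Beyond the 3 collagens of the rule, COL5A2, a chain of the type V collagen that nucleates type I fibrils, was 8.15-fold (7.7 to 8.62) higher and COL5A1 3.49-fold (3.26 to 3.73) higher. COL2A1, the cartilage fibril chain, was 1.55-fold (1.47 to 1.63) lower, and COL11A2 was 2.96-fold (2.41 to 3.67) lower. Among the 25 other collagens 9 were higher and 2 lower of 19 measured (TMM 7 and 4). COL6A3, which completes the beaded filaments of type VI collagen around cells, was at 21.5 to 293 CPM (median 116) in members against 0.482 to 3.31 CPM (median 1.45), 37.3-fold (34 to 40.8) higher and without overlap. Its partners COL6A2 and COL6A1 were 4.28-fold (4.12 to 4.44) and 1.65-fold (1.59 to 1.71) higher, the latter at 1.31 with TMM. The basement membrane collagen COL18A1 was 1.59-fold (1.53 to 1.64) lower.

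Genes for making collagen were mostly higher by small ratios. Of 29 genes for folding, modification and crosslinking 22 were measured, 16 were higher and 0 lower (TMM 10 and 1), with a median of 1.85. PCOLCE, which speeds the cleavage of procollagen ends, was 6.28-fold (5.85 to 6.73) higher, and the prolyl 3-hydroxylase gene P3H3 6.29-fold (5.4 to 7.3) higher. SERPINH1, the collagen chaperone of the endoplasmic reticulum, was 2.32-fold (2.23 to 2.41) higher, and LOXL2, a crosslinking oxidase, 1.72-fold (1.6 to 1.86). That last ratio was 1.37 with TMM, below the threshold.

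The small proteoglycan genes were far above their level in cardiomyocytes. DCN (chromosome 12, 91140484 to 91183123, minus strand), the small leucine-rich proteoglycan that binds collagen fibrils, was at 31.5 to 162 CPM (median 84.3) in members and 0.361 to 3.49 CPM (median 0.943) in cardiomyocytes. Over all cells it was 58.6-fold (53 to 64.9) higher, 129-fold without Scrublet doublets and 25.4-fold without sub-cluster 1. LUM (chromosome 12, 91102629 to 91111831, minus strand), its relative, was at 54.7 to 394 CPM (median 164) against 0.524 to 14.4 CPM (median 2.8), 57.5-fold (53.6 to 61.6) higher, 108-fold without Scrublet doublets and 30.6-fold without sub-cluster 1. Every hashtag of members lay above every hashtag of cardiomyocytes for both genes. BGN was 42.7-fold (35.7 to 51.4) higher, HAPLN1, which links hyaluronan to proteoglycans, 32.8-fold (30.2 to 35.6), and the heparan sulfate carrier GPC3 18-fold (17.6 to 18.5). VCAN, the large hyaluronan-binding proteoglycan of early heart matrix, was the other way: 275 to 817 CPM (median 496) in members against 501 to 938 CPM (median 825), lower in all 10 hashtags and 1.65-fold (1.61 to 1.69) lower over all cells, although the hashtag ranges overlapped. Of 30 genes 17 were measured, 11 higher and 3 lower (TMM 9 and 3).

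Elastic fibre genes differed in both directions. FBN1, the main fibrillin of microfibrils, was at 12.1 to 123 CPM (median 71.6) in members against 0.551 to 3.13 CPM (median 1.2) in cardiomyocytes and 27.9-fold (24.7 to 31.5) higher. EMILIN1, an elastin interface protein, was 24.5-fold (21.8 to 27.5) higher and MFAP2 7.57-fold (7.24 to 7.91). FBN2, the fibrillin of early development, was 3.53-fold (3.36 to 3.7) lower, and EMILIN2 3.46-fold (3.16 to 3.79) lower. In all 8 of 13 measured genes were higher and 2 lower, with TMM 8 and 3.

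Among matricellular and adhesive glycoproteins, TGFBI, which links collagen to integrins, was at 11.6 to 193 CPM (median 107) against 0.150 to 2.63 CPM (median 1.31). It was 67.2-fold (60.9 to 74.3) higher over all cells and 29.8-fold without sub-cluster 1. FN1, the fibronectin on which new matrix assembles, was at 366 to 1297 CPM (median 665) against 26 to 64.4 CPM (median 35.7) and 14.6-fold (14.2 to 15) higher, again with no overlap. POSTN, a collagen-binding protein of valve and scar fibroblasts, was 15.2-fold (13.9 to 16.6) higher, and TNC, a glycoprotein of remodelling matrix, 16.3-fold (14.7 to 17.9). The muscle laminin chains LAMA2 and LAMA4 were lower, by 5.91-fold (5.08 to 6.93) and 5.6-fold (4.99 to 6.31). Of 36 genes 24 were measured, 12 higher and 5 lower (TMM 9 and 5).

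The matrix protease list had 17 genes higher and 3 lower of 24 measured, with a median of 2.7 (TMM 14 and 4). MMP2, a gelatinase, was at 67.7 to 222 CPM (median 134) in members against 11.4 to 25.6 CPM (median 14.8) in cardiomyocytes, and its inhibitor TIMP1 at 184 to 903 CPM (median 454) against 34.6 to 117 CPM (median 88.5). The ratios were 8.02-fold (7.6 to 8.46) and 4.41-fold (4.29 to 4.54), and neither gene overlapped between the cell sets. PLAT, the tissue plasminogen activator, was 31.8-fold (29.3 to 34.5) higher and SERPINE2, a serpin that blocks such proteases, 10.8-fold (10.2 to 11.4). MMP15 and ADAMTS19 were 3.42-fold (3.15 to 3.72) and 4.57-fold (4.03 to 5.21) lower.

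Matrix receptors were mostly higher in members. Of 21 integrin and collagen receptor genes 14 were measured, 11 higher and 1 lower (TMM 10 and 1). ITGA8, a fibronectin and nephronectin receptor of mesenchyme, was 33.5-fold (28.7 to 39.2) higher. The collagen-binding integrins ITGA1 and ITGA2 were 21.8-fold (19.4 to 24.6) and 20.4-fold (17.4 to 23.9) higher, and the latter 9.69-fold without sub-cluster 1. The collagen receptor kinase DDR2 was 17.2-fold (15.1 to 19.6) higher. Among mesenchymal surface genes 10 of 15 were higher and 3 lower (TMM 8 and 3). PDGFRB, the receptor of pericytes and fibroblasts, was at 10.8 to 63.2 CPM (median 19.5) against 0 to 1.29 CPM (median 0.523), 31.7-fold (26.9 to 37.6) higher with sums, 57.8-fold as a mean over cells and 61.6-fold without Scrublet doublets. PDGFRA was closer: 28.5 to 140.3 CPM (median 82.6) against 10 to 78.2 CPM (median 24.2), 2.22-fold (2.07 to 2.37) higher, with overlapping hashtags and 8 of 10 hashtags at 1.5-fold or more. VCAM1 and ENG were 6.34-fold (5.77 to 6.98) and 3-fold (2.57 to 3.51) lower.

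Non-muscle actin separated members from cardiomyocytes more evenly over hashtags than smooth muscle actin. ACTB was at 2976 to 5792 CPM (median 4228) in members and 303 to 783 CPM (median 443) in cardiomyocytes, 8.05-fold (7.97 to 8.12) higher. ACTG2, an actin of smooth muscle, was 32.1-fold (27.5 to 37.4) higher and the actin-binding TAGLN2 20.9-fold (19.2 to 22.8). TAGLN, a smooth muscle and myofibroblast gene, was at 341 to 2122 CPM (median 1397) against 244 to 787 CPM (median 370.1), higher in 9 of 10 hashtags but with overlap. ACTA2, smooth muscle alpha actin, was at 173 to 1371 CPM (median 929.5) in members and 326 to 1241 CPM (median 783) in cardiomyocytes, higher in 5 of 10 hashtags, and its overall ratio was 0.964. ACTA2, which early cardiomyocytes are also known to express, did not separate the sets. TPM1 and MYL9 were 2.61-fold (2.59 to 2.63) and 3.9-fold (3.81 to 4) lower. In all 16 of 25 measured actin and contractile genes were higher and 2 lower, with TMM 14 and 7. ACTB did not set members apart from epicardial-gene cells, with a ratio of 0.9995. The whole list summed to 21563 CPM in members and 23622 CPM in epicardial-gene cells.

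**Figure D2:**
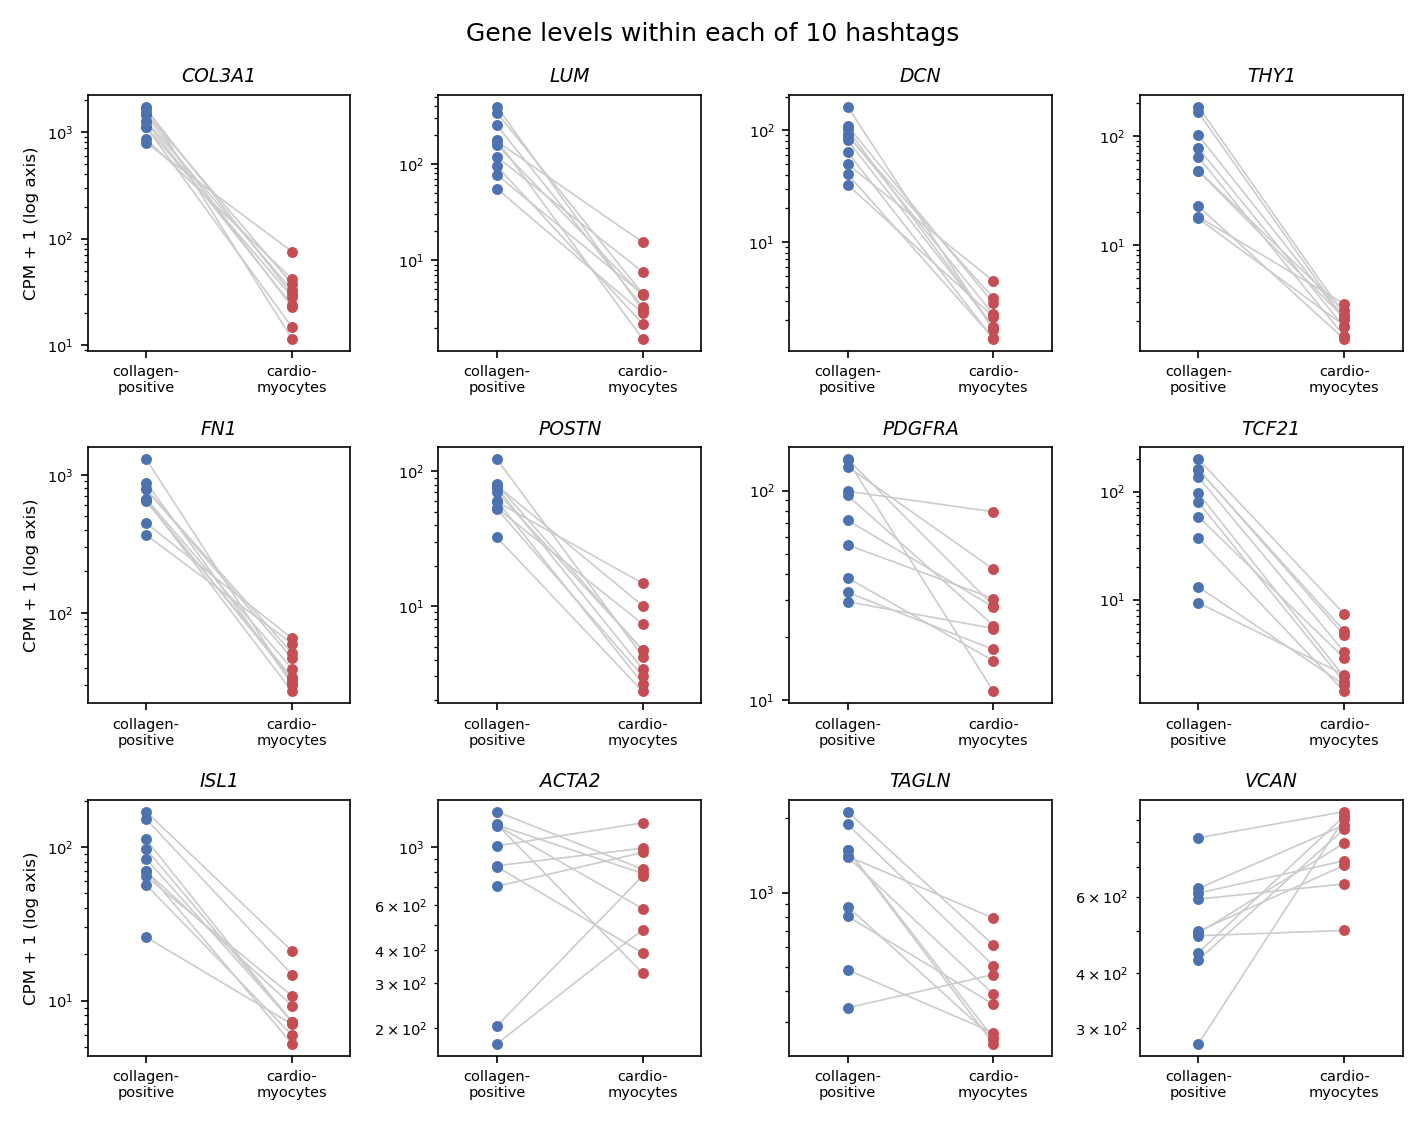
Level (CPM + 1, log axis) of 12 genes in collagen-positive cells and in cardiomyocytes, 1 point for each of the 10 hashtags with at least 20 members; grey lines join the same hashtag. COL3A1, THY1 and LUM do not overlap between the cell sets, while ACTA2 and VCAN do.

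Mesenchymal transcription factors stood on the members' side: 25 of 30 measured genes were higher and 2 lower (TMM 24 and 4), with a median of 4.37. EBF3, RUNX1 and PRRX1 were 36.2-fold (30.7 to 42.8), 36.6-fold (29.9 to 45) and 30.5-fold (27.1 to 34.2) higher. RUNX1 was 11-fold higher without sub-cluster 1. PRRX1, a homeobox gene of limb and body wall mesenchyme, was at 19.9 to 104 CPM (median 56.3) in members against 0 to 2.41 CPM (median 1.41). TWIST1, a regulator of the mesenchymal state, was at 34 to 126 CPM (median 55) against 7.5 to 22.2 CPM (median 15.7), 2.76-fold (2.54 to 2.99) higher, and SNAI2 10.6-fold (9.36 to 12.1). ETV1 was 1.85-fold (1.74 to 1.98) lower.

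Heart field genes lay on both sides, and they were not counted by role. ISL1, a factor of cardiac progenitors of the second heart field, was at 24.9 to 169 CPM (median 76) against 4.22 to 20 CPM (median 6.29), 14.8-fold (13.9 to 15.9) higher and without overlap. TCF21, a factor of epicardial and fibroblast precursors, was at 8.33 to 199 CPM (median 87.2) against 0.411 to 6.36 CPM (median 1.44), 26.3-fold (23.8 to 29.1) higher. It was 17.4-fold higher with the cardiomyocyte limit at 10000 CPM, which also counts cells from 10000 to 20000 CPM as cardiomyocytes. NR2F2, a factor of atrial and venous cells, was 2.68-fold (2.55 to 2.8) higher overall but lower than in cardiomyocytes in 1 hashtag of 10, where the ranges overlapped. HAND2 was at 159.7 to 252 CPM (median 202) against 135 to 245 CPM (median 193) and did not reach the threshold, with an overall ratio of 0.932. TBX18, of epicardium and sinus horn, was at 3.02 to 82.2 CPM (median 17.1) against 3.67 to 13.7 CPM (median 9.57). Factors of working cardiomyocytes among the lower genes were NKX2-5, by 3.82-fold (3.67 to 3.98) and in all 10 hashtags, TBX5 by 3.38-fold (3.03 to 3.77) and the ventricular IRX4 by 7.18-fold (6.33 to 8.17). IRX5, of the same list, was 5.07-fold higher. Of 29 genes 27 were measured, 11 higher and 7 lower (TMM 11 and 8). Of 39 HOX genes 3 were measured, HOXB4, HOXB2 and HOXB3, and were 3.53-fold (3.19 to 3.89), 1.94-fold (1.82 to 2.08) and 1.81-fold (1.6 to 2.05) higher; the last was at 1.44 with TMM.

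Signalling lists held ligands, inhibitors and receptors on the members' side. CRABP1, a retinoic acid carrier, was at 6.28 to 49.9 CPM (median 35) in members against 0.602 to 2.09 CPM (median 1.59), 15.4-fold (13.8 to 17.3) higher. With the cardiomyocyte limit at 10000 CPM for both sets it was 8.99-fold higher. GDF6 and GREM1, a BMP ligand and a BMP antagonist, were 31-fold (27.2 to 35.4) and 23.5-fold (19.1 to 29.1) higher, and without sub-cluster 1 GDF6 was 20.5-fold higher. TGFB2, a ligand of valve and cushion formation, was 5.45-fold (5.15 to 5.76) higher. BMP5 and BMP7 were 2.27-fold (2.15 to 2.41) and 2.78-fold (2.59 to 2.99) lower. Of 26 measured genes of the TGF-beta and BMP list 13 were higher and 3 lower, and TMM gave 10 and 4.

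WNT genes divided evenly once scaled by TMM, with 9 higher and 9 lower, against 12 and 6 of 24 with plain sums. DKK1, a secreted WNT inhibitor, was 16.2-fold (14.8 to 17.6) higher over all cells, but 1 hashtag of members was below its cardiomyocytes and the range was 3.6 to 255 CPM (median 99.9). SFRP1, another secreted inhibitor, was at 186 to 1748 CPM (median 1057) against 129 to 931 CPM (median 225), higher in all 10 hashtags yet overlapping. WNT2 was 6.59-fold (4.95 to 8.98) lower and DKK3 4.13-fold (3.66 to 4.68) lower. Hedgehog genes were higher in 6 of 7 measured, among them the binding protein HHIP at 27.1-fold (23 to 31.9) and the mediator GLI3 at 4.12-fold (3.83 to 4.44). NOTCH genes were higher in 8 of 11, with 1 lower (TMM 7 and 1), led by the atypical ligand DLK1 at 21.1-fold (20.1 to 22.2), while the target HEY2 was 6.42-fold (5.83 to 7.1) lower.

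Growth factors and binding proteins were higher in 18 and lower in 4 of 32 measured genes (TMM 16 and 6). HGF, the ligand of the MET receptor, was 32.2-fold (27.5 to 37.6) higher, and the angiopoietin ANGPT2 23.3-fold (20.2 to 27). IGFBP3, which binds insulin-like growth factors, was at 119 to 798 CPM (median 322) against 6.58 to 15.2 CPM (median 11), and 21.3-fold (20.4 to 22.2) higher. ANGPT1 was 3.01-fold (2.75 to 3.31) lower. Of 25 measured growth factor receptors 12 were higher and 4 lower (TMM 12 and 6). Besides PDGFRB these included the chemokine receptor ACKR3 at 3.02-fold (2.68 to 3.4) and the cytokine receptor LIFR at 2.98-fold (2.76 to 3.21), whereas the neuregulin receptor ERBB4 was 3.32-fold (3.02 to 3.66) lower.

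Genes of excitation and energy supply lay on the cardiomyocytes' side. Of 47 ion channel and coupling genes 27 were measured, 15 were lower and 8 higher (TMM 15 and 6). HCN4, the pacemaker channel, was at 3.61 to 32.7 CPM (median 11.2) in members against 31.9 to 125 CPM (median 54.1), lower in all 10 hashtags and 5.62-fold (4.86 to 6.53) lower. Its ratio of 0.178 became 0.100 with the cardiomyocyte limit at 10000 CPM for both sets. The calcium release channel gene RYR2 was 4.29-fold (4 to 4.59) lower. KCNMA1, a calcium-activated potassium channel, was 54.8-fold (47.6 to 63.4) higher, and KCNJ2, an inward rectifier, 39.8-fold (30.5 to 52.5). KCNJ2 was 72.2-fold higher without Scrublet doublets. Without sub-cluster 1, KCNMA1 was 9.71-fold and KCNJ2 5.88-fold higher, and KCNMA1 was found in 32.6% (27.2 to 38.4) of thinned cells of that sub-cluster against 0.621% to 3.85% of the other 6. GJA1, the gap junction protein shared by fibroblasts and muscle, was at 14.4 to 113 CPM (median 53) against 11.6 to 56.7 CPM (median 31), 1.7-fold (1.58 to 1.82) higher with overlap, and 1.35 with TMM.

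Glycolysis genes were lower in 17 of 20, with a median ratio of 0.509, and SLC2A3, a glucose transporter, was the 1 gene higher, at 2.09-fold (2.04 to 2.15), and at a ratio of 0.994 without sub-cluster 1. Oxidative and fatty acid genes were lower in 16 of 20 (TMM 20), the median ratio being 0.487. COX6A2 and FABP3, the muscle forms of an oxidase subunit and a fatty acid carrier, were 10.5-fold (7.88 to 14.2) and 7.52-fold (6.94 to 8.15) lower. Of 24 stress and immediate early genes 9 were higher and 2 lower (TMM 8 and 5), among them KLF6 at 4.64-fold (4.46 to 4.83) and ZFP36 at 4-fold (3.67 to 4.35) higher. Cells had been thawed before capture, and no unthawed cells were analysed here.

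Outside the lists, the largest differences at 50 CPM or more were led by GABRP, a GABA receptor subunit (85.7 against 1.39 CPM, 61.6-fold (54.9 to 69.3)), the annexin gene ANXA1 (208 against 3.69 CPM, 56.3-fold (52.5 to 60.5)) and TCIM (62 against 1.21 CPM, 51.4-fold (45.3 to 58.4)). Then came SPP1, which encodes osteopontin, at 77.5 against 2.14 CPM, 36.2-fold (32.8 to 40.1). SULF1, PCDH18, TFPI and MECOM were the other 4, at 21.7-fold to 36.2-fold. GABRP and TCIM led sub-cluster 1, described below, without which GABRP was at 1.48 CPM, near cardiomyocytes, and TCIM 7.28-fold higher. ANXA1 and SPP1 were then 19.8-fold and 8.38-fold higher. On the lower side stood the atrial peptide gene NPPA (28.3 against 416 CPM, 14.7-fold (13.4 to 16.2)) and the light chain gene MYL3 (256 against 3293 CPM, 12.9-fold (12.5 to 13.3)). CKM, LINC01405, HSPB3, FITM1, MB and PGAM2 were 10.1-fold to 11.6-fold lower.

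Epicardial-gene cells differ from members in a single limit of the rule. Of 9345 measured genes 637, or 6.82%, were higher in members and 568, or 6.08%, lower, with a median ratio of 1.04. No fibrillar collagen passed the threshold in either direction among 8 measured (TMM 0 higher and 1 lower), and the list's median was 0.942. THY1 was at 57.5 CPM in members and 80.3 CPM in epicardial-gene cells, and PDGFRA at 63.1 and 60.7 CPM. In the epicardial list 11 of 12 genes were lower, 5 of them through the rule. TBX18, which the rule did not use, was 9.92-fold (8.53 to 11.6) lower, ALDH1A2, the retinoic acid synthase of epicardium, 13.8-fold (11 to 17.4) and TCF21 1.93-fold (1.75 to 2.12).

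Other genes were lower than in epicardial-gene cells too. The WNT modulators SFRP2, SFRP5 and WNT2B were 21.9-fold (19.9 to 24.2), 9.31-fold (8.26 to 10.5) and 15.2-fold (11.8 to 20) lower, and RDH10, which makes retinaldehyde, 12.8-fold (11.5 to 14.2). TNNT1, the slow skeletal troponin T, was 10.4-fold (9.49 to 11.3) lower, IGFBP5 4.16-fold (4 to 4.33), the laminin chain LAMC1 3.46-fold (3.22 to 3.72) and TNC 3.64-fold (3.32 to 4). Outside the lists, ITLN1, a lectin of mesothelium, had 2 UMIs in all members and was at 0.124 against 52.3 CPM, 423-fold lower with a counting interval of 116 to 3512. ALKAL2, ARHGAP22, PLAC9, CALB2, UNC5B-AS1, FXYD7 and SPRR2F were 11.7-fold to 28.9-fold lower.

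Higher in members than in epicardial-gene cells were EBF3 at 6.12-fold (4.18 to 9.31), ANGPT2 at 5.08-fold (3.58 to 7.43), HAPLN1 at 4.35-fold (3.68 to 5.18) and ISL1 at 3.74-fold (3.18 to 4.44). Of 29 mesenchymal transcription factors 13 were higher and 1 lower, and of 25 heart field genes 10 were higher and 6 lower, or 13 and 3 without sub-cluster 1. NKX2-5 was 2.4-fold (2.15 to 2.68) higher and TBX2, of the outflow tract and atrioventricular canal, 2.49-fold (2.05 to 3.05). Glycolysis genes were higher in 8 of 20, with TMM in 5 and without sub-cluster 4 in 4, LDHA at 2.36-fold (2.23 to 2.49). Outside the lists C11orf96 (57.4 against 8.61 CPM, 6.67-fold (5.04 to 8.99)), LMO2 (66.9 against 11.1 CPM, 6.04-fold (4.71 to 7.85)) and the complement gene C7 (121 against 21.2 CPM, 5.72-fold (4.78 to 6.89)) led, followed by MXRA8, MECOM, CCND1, CD24 and TCIM. Without sub-cluster 1, TCIM was at 0.369 of its level in epicardial-gene cells.

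Several of these ratios turned on sub-cluster 1. DCN was at 0.690 of its level in epicardial-gene cells with all members and at 0.299 without sub-cluster 1. LUM was at 1.19 and 0.631. KCNJ2 was 2.97-fold higher with all members and at 0.438 without that sub-cluster, and 6.92-fold higher among cells given to 1 hashtag. Of 12 measured epithelial markers, 10 passed the threshold upward and 2 downward with all members, and without sub-cluster 1, of 11 measured, 0 upward and 10 downward.

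Collagen-low cells showed what the collagen limit left out. Their fibroblast markers summed to 288 CPM, against 959 in members, 897 in epicardial-gene cells and 171 in cardiomyocytes. Elastic fibre genes were at 638 against 987 CPM and matrix proteases at 574 against 1387 CPM. Proteoglycans were nearly level, at 2207 and 2172 CPM, with GPC3 at 1302 CPM in collagen-low cells and 826 in members. DCN and LUM were at 4.52 and 9.27 CPM there, against 108 and 223 in members. Mesenchymal transcription factors summed to 4244 CPM in collagen-low cells and 4729 CPM in members, both above the 1759 CPM of cardiomyocytes.

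Members were then clustered on variable genes that belonged to none of the lists, which gave 7 sub-clusters, named here by number and leading genes. Since the cells were sorted by their own expression, differences between sub-clusters are descriptions. Between 5 and 9 sub-clusters appeared at other settings. Sub-cluster 4 was the least stable, with 42.4% to 98.8% of its cells kept together. The highest value came at resolution 0.3, where it merged with sub-cluster 2 into 458 cells, and sub-clusters 3 and 5 merged into 375 cells. Sub-clusters 1, 6 and 7 kept 88.7% or more of their cells, without merging.

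**Figure D3:**
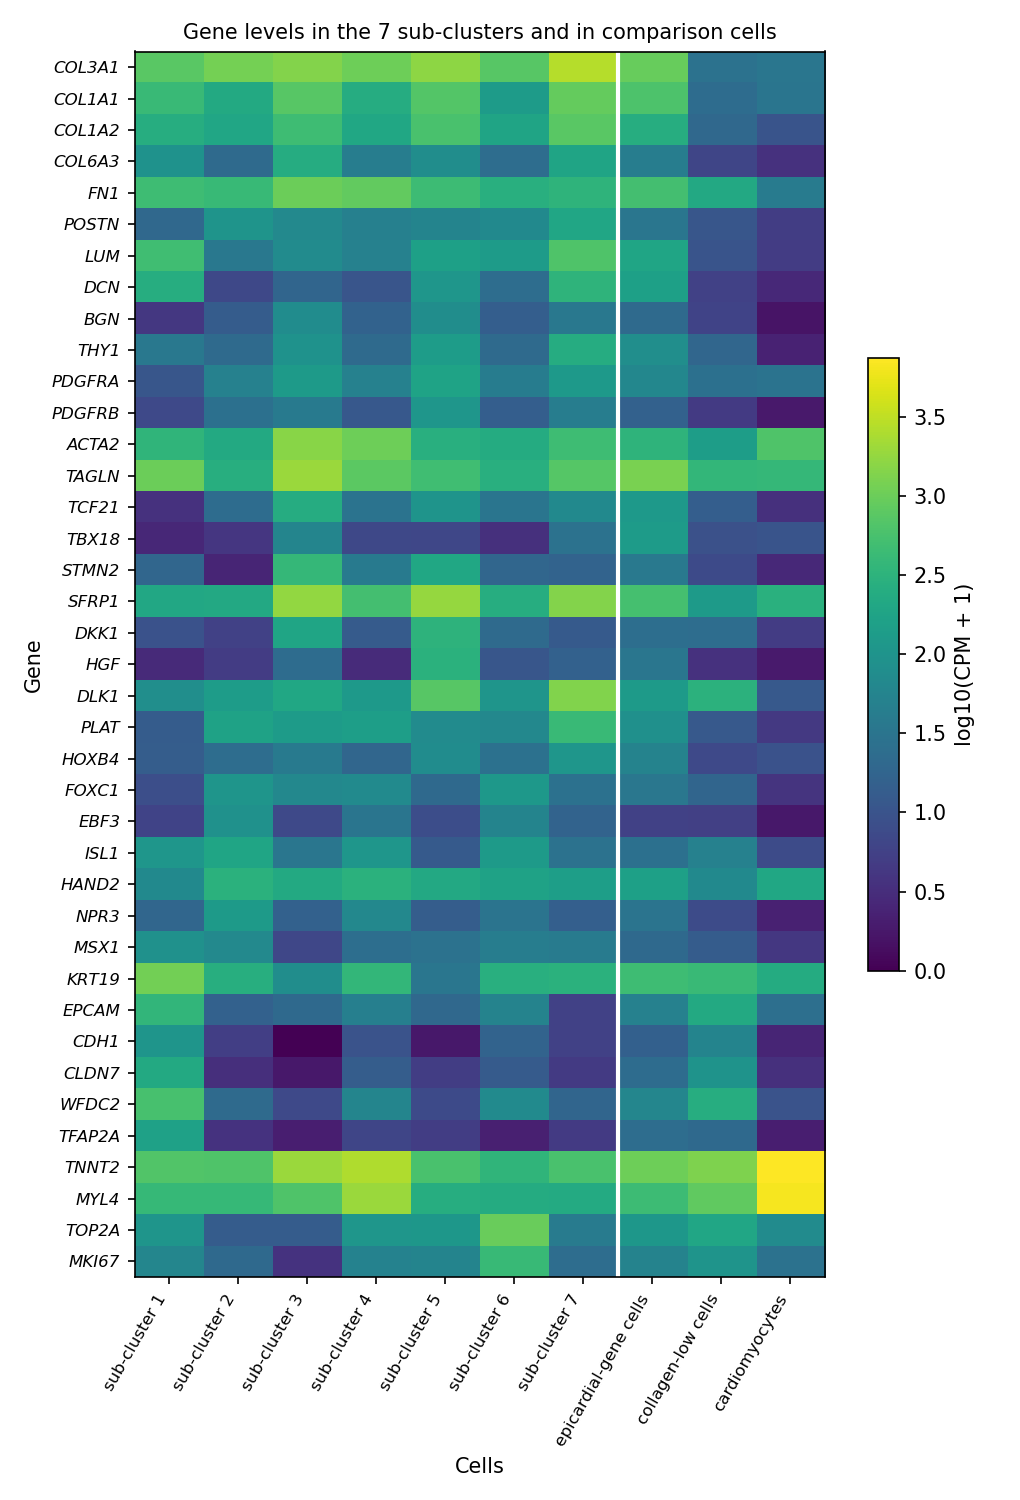
Level (log10 of CPM + 1) of 39 genes in the 7 sub-clusters of collagen-positive cells and in epicardial-gene, collagen-low and cardiomyocyte cells. Epithelial genes such as CLDN7 and WFDC2 are high in sub-cluster 1, HGF in sub-cluster 5 and TOP2A in sub-cluster 6.

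Sub-cluster 1 (293 cells, 22.2% of members) was led by GABRP, TFAP2A, CLDN7, CRH and WFDC2. WFDC2, a secreted protease inhibitor-like protein of epithelia, was at 555 CPM there and at 6.07 to 71.4 CPM in the other 6. Epithelial markers summed to 5518 CPM, and to 449 to 1540.5 CPM in the others. The same cells had LUM at 477 CPM and DCN at 257 CPM, TGFBI at 294 CPM and COL3A1 at 767 CPM. FOXC1 and MFAP4, 2 of the given stromal markers, were at 7.66 and 8.72 CPM, and PDGFRA at 9.79 CPM, below every other sub-cluster. The name stromal therefore does not describe this sub-cluster by those 3 genes.

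Epithelial and stromal transcripts were found in single barcodes of sub-cluster 1. With every barcode thinned to 3000 UMIs, 207 of 285 (72.6%, 67.1 to 77.7) had a UMI of LUM or DCN together with a UMI of the epithelial set. In the other sub-clusters the share was at most 3.41%, in epicardial-gene cells 10.2%, and in cardiomyocytes 0.166%. EPCAM was found in 63.5% (57.6 to 69.1) of sub-cluster 1 and 6.5% (6.14 to 6.89) of cardiomyocytes, or 93.9% and 23.1% unthinned, at median depths of 14930 and 12547 UMIs. In collagen-low cells the share was 38.2% (35.5 to 41.0), or 51.2% unthinned. In epicardial-gene cells it was 9.23% (6.58 to 12.5), or 18.9% unthinned. CDH1, the epithelial cadherin, was found in 29.1% (23.9 to 34.8) of sub-cluster 1 (70.3% unthinned) and in 0 of 235 cells of sub-cluster 3, which allows a share of up to 1.28%. Scrublet marked 11.9% of sub-cluster 1 and 11.6% of all kept cells. It marked 35.8% of sub-cluster 4 and 1.09% to 6.02% of the remaining sub-clusters. Mixed hashtags were found in 62.1% of sub-cluster 1, against 25% to 56.5% of the other sub-clusters. Whether a barcode here held 1 cell or 2 was not tested further.

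Sub-cluster 2 (279 cells, 21.1%) was led by NEFM, EBF3, NPR3, MECOM and EBF2. EBF3, a transcription factor of mesenchyme and neurons, was at 88.9 CPM. ISL1 was at 185 CPM, the highest of the 7, with HAND1 at 295 CPM, NKX2-5 at 223 CPM and FOXC1 at 103 CPM. COL3A1 was at 1151 CPM and COL1A1 at 221 CPM, while LUM and DCN, at 34.5 and 5.82 CPM, were the lowest of the 7. ISL1 was detected in 35.9% (29.9 to 42.2) of its thinned cells, against 2.33% (0.482 to 6.65) in sub-cluster 5 and 1.74% (1.55 to 1.95) in cardiomyocytes, and unthinned in 59.1%, 4.29% and 6.57%.

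Sub-cluster 3 (249 cells, 18.8%) was led by C7, STMN2, GAP43, MYLK and GABRB2. STMN2, a tubulin-binding protein best known from neurons, was at 379 CPM. Contractile and mural genes were high: ACTA2 at 1549 CPM, TAGLN at 1916 CPM, CNN1 at 252 CPM and ACTG2 at 98.3 CPM. Smooth muscle and pericyte markers summed to 4146 CPM, against 817 to 2725 CPM in the other 6. TCF21, TBX18 and COL6A3 were also highest here, at 246, 56.5 and 247 CPM, as was TIMP1 at 913 CPM. Its cardiomyocyte genes summed to 6780.4 CPM, the second level after sub-cluster 4.

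Sub-cluster 4 (165 cells, 12.5%) was led by RRAD, TSPAN7, HTR2C, SERPINI1 and TMOD1, and CSRP3 and MB, of striated muscle, were among its 10 leading genes. Its cardiomyocyte genes summed to 12715 CPM, with TNNT2 at 2606 CPM and NKX2-5 at 453 CPM. COL3A1 was at 1027 CPM and FOXC1 at 71.5 CPM. Scrublet marked 35.8% (28.5 to 43.6) of these cells, against 1.09% to 11.9% of the others, and its glycolysis genes, at 13511 CPM, were nearest to the 15201 CPM of cardiomyocytes. The part of doublets in this profile was not tested. Without sub-cluster 4 the comparison with cardiomyocytes gave 7 fibrillar collagens higher and 1 lower, and 28 mesenchymal transcription factors higher and 2 lower.

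Sub-cluster 5 (140 cells, 10.6%) was led by HGF, ROBO2, LHX2, BMP10 and NTS. HGF was at 299 CPM and at 1.92 to 22.0 CPM in the other 6. The WNT inhibitor DKK1 was at 318 CPM, the WNT potentiator RSPO3 at 305 CPM and the BMP antagonist GREM1 at 89.4 CPM. PDGFRB and PDGFRA, at 106 and 176 CPM, were highest here, as was BGN at 77.3 CPM. The heparin-binding growth factor PTN was at 1199 CPM, and ISL1 was low, at 11.3 CPM.

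Sub-cluster 6 (104 cells, 7.87%) was led by the mitotic genes UBE2C, TOP2A, NUSAP1, NEK2 and CENPF. MKI67 was at 399 CPM and TOP2A at 983 CPM, while in the other 6 MKI67 ran from 2.66 to 59.8 CPM. Beyond the cycle, its FOXC1 at 116 CPM, EBF3 at 53.9 CPM and ISL1 at 127 CPM stood near those of sub-cluster 2. Its collagens were the lowest of the 7, with COL1A1 at 131 CPM.

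Sub-cluster 7 (92 cells, 6.96%) was led by SST, PRPH, NPNT, PLAC9 and SHISA3. It had the highest levels of THY1 at 250.1 CPM, COL3A1 at 2715 CPM, LUM at 638 CPM, DCN at 325 CPM and POSTN at 192 CPM. DLK1 was at 1398 CPM and PLAT at 425 CPM. The epicardial genes BNC1 and SMOC2 were also highest here, at 24.5 and 33.9 CPM. Both belong to the 5 epicardial genes of the rule, held to at most 2 UMIs together in a member. Their higher levels in epicardial-gene cells, 82.3 and 113 CPM, were therefore set by the selection. TBX18, which the rule did not use, was at 28.1 CPM here and 132 CPM in epicardial-gene cells. LUM or DCN was found in 62 of 88 thinned cells (70.5%), of which 3 also had an epithelial UMI.

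**Figure D4:**
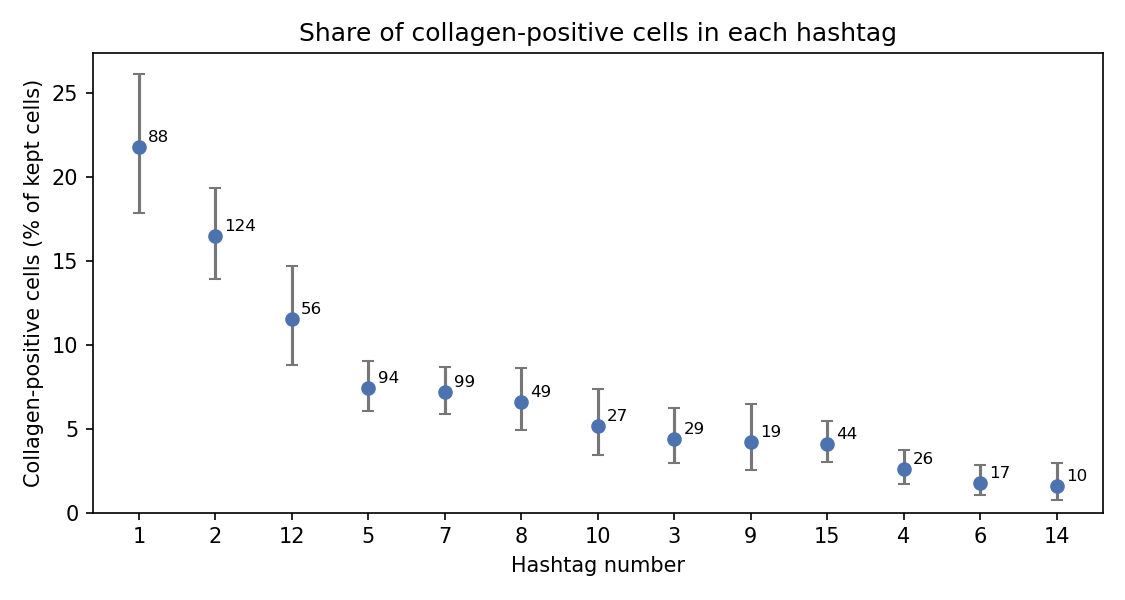
Share of collagen-positive cells among the kept cells of each of the 13 hashtags, ordered by share, with exact 95% binomial intervals; the number beside each point counts the members. Hashtag1 and Hashtag2 lie above the other 11 hashtags, at 21.8% and 16.5%.

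The share of members differed widely between hashtags. The lowest was 1.61% (0.772 to 2.93, 10 of 623 cells) in Hashtag14, the median 5.14% and the highest 21.8% (17.9 to 26.1, 88 of 404 cells) in Hashtag1. Hashtag2 followed with 16.5% (13.9 to 19.4) and Hashtag12 with 11.5% (8.82 to 14.7), and the interval of Hashtag1 did not reach those of the 11 hashtags below Hashtag2. Cardiomyocytes made up 35.4% of Hashtag1 cells and 96.6% of Hashtag14 cells, with a median of 89.1%. Among cells that were not cardiomyocytes the members' share ran only from 33.7% to 53.5% (median 46.7%), and Hashtag1 was the lowest there. Median UMIs per member were 9792 to 13925 over the hashtags, and Hashtag1 had 10398. Hashtag1 thus had the highest share of members among all its cells and the lowest among its cells that were not cardiomyocytes.

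Hashtags also differed in which members they held. Sub-cluster 2 made up 5.32% to 45.5% of members (median 15.1%) over the 10 hashtags with at least 20 members, with the highest share in Hashtag1. Sub-cluster 6, with the mitotic genes, ran from 0 of 29 members in Hashtag3 and 0 of 26 in Hashtag4, which allow up to 10.3% and 11.5%, to 28.2% in Hashtag2 (median 4.67%). Sub-cluster 3 ran from 0 of 88 members in Hashtag1, which allows a share of up to 3.41%, to 68.2% in Hashtag15 (median 26.9%), and sub-cluster 5 from 0 of 88 in Hashtag1 and 0 of 44 in Hashtag15 (up to 6.82%) to 42.6% in Hashtag5 (median 4.98%). Sub-cluster 1 was most frequent in Hashtag7, at 38.4%, and least in Hashtag8, at 4.08%.

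**Figure D5:**
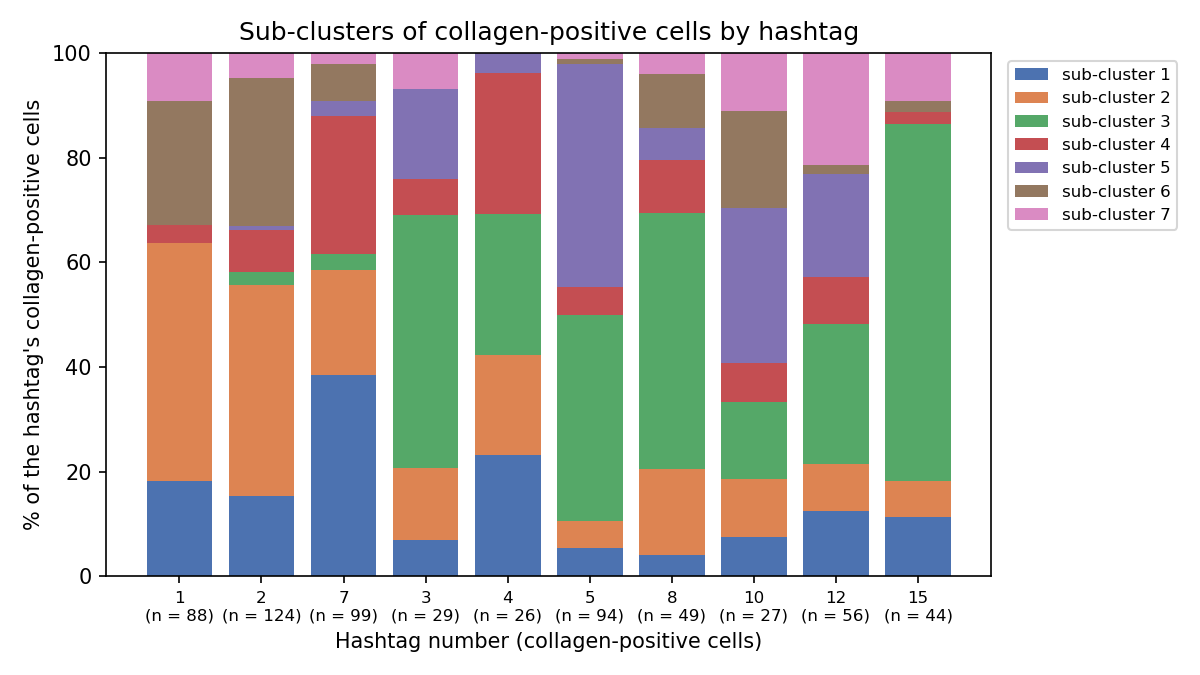
Percent of collagen-positive cells in each of the 7 sub-clusters, as stacked bars for the 10 hashtags with at least 20 members. Sub-cluster 2 fills 45.5% of the bar of Hashtag1 and sub-cluster 3 fills 68.2% of that of Hashtag15.

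Gene levels of members also differed between hashtags. TCF21 was lowest in Hashtag7 and highest in Hashtag15, with a range of 8.33 to 199 CPM (median 87.2). ACTG2 ran over 3.02 to 117 CPM (median 45.6) and C7 over 4.03 to 319 CPM (median 156), both lowest in Hashtag1 and highest in Hashtag15. HGF was highest in Hashtag5, with 2.08 to 157 CPM (median 24.4), and GPC3 in Hashtag2, with 409 to 1253 CPM (median 724). COL3A1 had a narrower range, 792 to 1728 CPM (median 1255). Every member needed at least 5 UMIs of COL1A1, COL1A2 and COL3A1 together. The spread of COL3A1 is thus limited by the rule and is not comparable with that of the other genes. Whether the differences between hashtags lie within a kind of member or in the mix of kinds was not tested.

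Cell-cycle transcripts were compared at 1 depth. After thinning to 3000 UMIs, which left out 72 members, 803 of 1250 members (64.2%, 61.5 to 66.9) had UMIs of at least 3 G2M genes. The share was 59.9% (54.9 to 64.7) in epicardial-gene cells, 72.5% (69.9 to 75.0) in collagen-low cells and 53.2% (52.4 to 53.9) in cardiomyocytes. Unthinned it was 95.3% in members and 92.3% in cardiomyocytes. MKI67, a marker of dividing cells, was at 10.8 to 196 CPM (median 62.2) in members and 21.8 to 51.7 CPM (median 29.8) in cardiomyocytes, higher in 7 of 10 hashtags with overlap, and was found in 10.2% (8.61 to 12.1) of thinned members and 4.81% (4.5 to 5.15) of cardiomyocytes (19.5% and 12.6% unthinned). Of 52 measured G2M genes 35 were higher and 0 lower than in cardiomyocytes (TMM 25 and 0), and of 30 S phase genes 11 were higher and 1 lower (TMM 7 and 1). Sub-cluster 6 held the high end, with 104 of 104 cells at 3 G2M genes or more, and sub-cluster 3 the low end, with 50.2%. The G2M list summed to 15723 CPM in sub-cluster 6 and to 1075 to 3133 CPM in the other sub-clusters. In cardiomyocytes it summed to 2248 CPM, within that range. How many G2M genes are higher in members without sub-cluster 6 was not computed.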

How the data were processed

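As deposited by the authors, the values are UMI counts in a single matrix of 36601 genes and 13 hashtags, made with Cell Ranger 4.0.0 per the file headers and with the genome build hg38 per the submitters' processing notes. Alignment settings, annotation and barcode calling were not given in the sources used here. Of 24038 barcodes, 21623 passed limits of 500 genes, 1000 gene UMIs and no more than 25% mitochondrial UMIs, with 306630985 gene UMIs (1000 to 115854 per cell). The members and the 41 gene lists were chosen with earlier results of these data known.

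Counts were summed per set of cells and scaled to CPM. Intervals are at 95%, conditional binomial for ratios and Clopper-Pearson for shares, both exact ( scipy 1.17.1, Python 3.11.15). Cells of 1 pool are not replicates, so no p-value was computed. These calculations were tested on simulated data. Members were clustered in scanpy 1.11.5 (2000 variable genes outside the lists, 20 principal components, 15 neighbours, leidenalg 0.10.2 at resolution 0.5). Scrublet had an expected rate of 17.3% and a threshold of 0.38. Shares of cells with a UMI used cells thinned to 3000 UMIs.

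Genes named are those of the selection rule and the given markers, up to 6 per list with the largest ratios past 1.5 and a fixed set (such as VCAN, ACTA2, HCN4 and KCNJ2), other list genes where a sub-cluster is described, the 8 per side with the largest ratios outside lists at 50 CPM or more, and the 5 leading genes of each sub-cluster by fold with 5 CPM added. Positions are from GENCODE 29. No sequence is printed.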

Additional observations from a re-analysis of the deposited data

How the results depend on the processing

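No paired analysis was possible because the results come from no test: the kinds of cell were chosen by their own expression, and their levels within each hashtag are set side by side as a description. The members' share of kept cells, 6.11%, was 6.72% with at least 3 and 4.76% with at least 10 collagen UMIs, 5.05% and 7.07% with cardiomyocyte limits of 10000 and 30000 CPM, and 6.61% among cells given to 1 hashtag. Without sub-clusters 1 and 4, alternatives chosen after seeing the data, it was 4.76% and 5.35%. Genes higher than in cardiomyocytes, 2192, numbered 1227 with TMM, 673 at 50 CPM or more, 9220.0 without a low-count filter and 1097 at a ratio of 2. The 1258 lower genes numbered 2318, 615, 8417 and 635 under the same settings. Against epicardial-gene cells the 637 higher genes became 158 at 50 CPM or more, 6680.0 without a filter and 191 at a ratio of 2, and the 568 lower genes 200, 3776 and 284. The lowest share of a hashtag, 1.61%, was 0% when a hashtag had to hold 90% of hashtag UMIs. The share of members with at least 3 G2M genes, 64.2%, was 46.3% at 2000 UMIs and 85.1% at 5000 UMIs, and 83.3% and 31.8% with at least 2 and 5 genes. KCNJ2 against epicardial-gene cells reversed, from 2.97 to 0.438, without sub-cluster 1. Of 624 values of 26 named genes under alternatives that can change a ratio, 357 stayed within their counting interval, 266 moved beyond it and 1 reversed. The cause of these shifts was not tested. Levels near 1 CPM rest on few UMIs in the smaller sub-clusters, where 92 cells of sub-cluster 7 hold 855585 UMIs.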

Other observations

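Hashtags 6, 9 and 14 had 17, 19 and 10 members, too few for levels of genes, and enter only the shares of cells above. Of the 17 members in Hashtag6, 6 fell in sub-cluster 4. In Hashtag9, 13 of 19 fell in sub-cluster 3, and in Hashtag14 4 of 10 fell in sub-cluster 1. Epicardial-gene cells numbered 4, 8 and 0 in these hashtags, the last of which allows up to 3 of its 623 cells.

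Some gene groups outside the accounts above varied among the collagen-positive cells. The metallothionein gene MT2A, whose product binds zinc and copper, was at 58.4 CPM in sub-cluster 3 and at 492 CPM in sub-cluster 6. The immediate early gene JUNB was at 287 CPM in sub-cluster 5, against 38.1 to 130.2 CPM in the other 6. CDKN1C, a cyclin-dependent kinase inhibitor, was at 334 CPM in sub-cluster 2, and at 79.8 CPM in sub-cluster 1. These values are descriptions of sub-clusters formed from the same cells.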
